A study of Mus musculus with 6 samples.

Results

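A set of 31 genes that showed 1 array pattern in the mouse cochlear nucleus is described here, out of 12393 genes named on the array. Each was well below all 3 contralateral samples in ipsilateral samples 2 and 3 and above all 3 of them in ipsilateral sample 1. A probe set was taken when its lowest contralateral value exceeded the higher of ipsilateral 2 and ipsilateral 3 by 0.5 or more on the log2 scale (the margin), ipsilateral 1 exceeded all 3 contralateral values, and the contralateral mean was above 4, with 1 entry per gene symbol. Of the 8758 genes with a contralateral mean above 4, 0.354% met the rule, as did 37 (0.261%) of 14157 probe sets. The genes were selected on the values of all 6 arrays, so their size and direction are given as a description, with no test.

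The study infused tetrodotoxin, a sodium channel blocker that silences nerve impulses, into 1 cochlea of mice at postnatal day 21 by osmotic pump for 24 h. The ipsilateral group was the cochlear nucleus of the infused side and the contralateral group that of the opposite side, each with 3 biological replicates of pooled tissue from 10 to 12 mice. The 6 pools gave 6 Affymetrix arrays, 1 for each pool, with array medians between 5.86 and 5.92 (log2 GCRMA values). No untreated mice, strain or sex were given in the labels, both groups came from infused animals, and the pools hide differences between mice.

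The choroid plexus is a folded epithelium around a stroma of leaky capillaries in the brain ventricles, and its cells secrete cerebrospinal fluid. They pump sodium, chloride and bicarbonate with water from blood to ventricle, import vitamins and hormones with carrier proteins, seal the spaces between cells with tight junctions and carry tufts of cilia. The plexus of the fourth ventricle lies beside the cochlear nucleus. In pooled tissue, fewer cells of a type and less RNA per cell cannot be told apart.

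All 7 markers taken for the choroid plexus epithelium (Ttr, Kcne2, Folr1, Kl, Sostdc1, Aqp1 and Otx2) were among the 31 genes, although these markers were proposed with results of the same arrays known. Their mean log2 value ranged from 7.59 to 8.30 contralaterally and was 9.32, 4.79 and 5.06 on ipsilateral arrays 1, 2 and 3. Of the 31 genes, 20 belonged to a list of secretion, transport, receptor, barrier, matrix or transcription factor genes and 11 to none of the lists. None of the 31 was a listed cilia gene. The 20 genes were 6.21% of the 322 genes of the 8 function lists with a contralateral mean above 4, against 0.354% of all genes. The lists were written with earlier results of these data known, so these shares are a description and no test of enrichment.

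**Figure D1:**
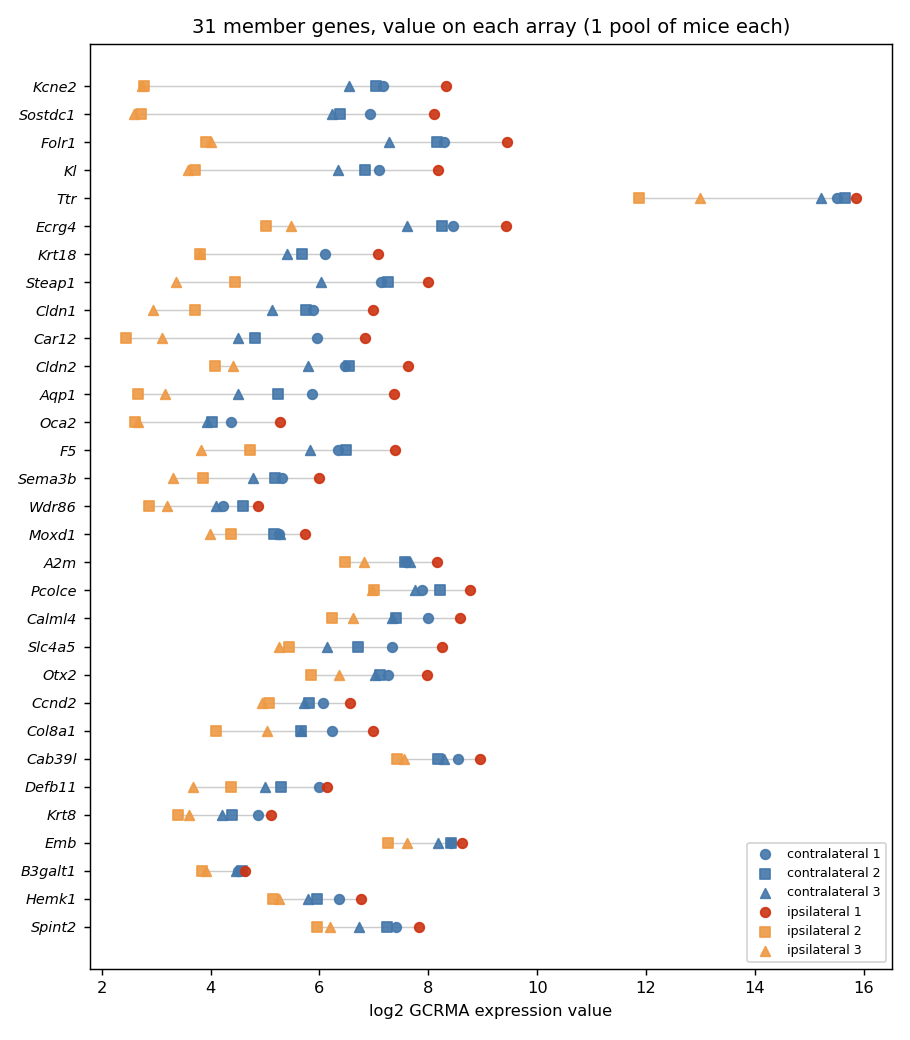
Log2 GCRMA expression value of each of the 31 genes on each of the 6 arrays (x axis, 1 point per array), ordered from the largest margin at the top. Ipsilateral 1 is the rightmost point and ipsilateral 2 and 3 are the leftmost points of every gene, as the rule requires, and Ttr lies far above the others in level.

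Promoter sequences are shown for 4 members that hold a short motif of a factor known from ciliated or choroid plexus cells. The common order of the arrays was set by the selection and is no sign of shared control. The RefSeq promoter table of assembly GRCm38.p6 held 25 of the 31 genes, and the 250 bases before each start were searched on both strands. GTTGCC, a short core bound by RFX factors, which control cilia genes, was present in 6 of 31 promoter windows (19.4%) for 5 genes, against 10.4% of all 32851 windows. TAATCC, the core bound by OTX factors, was present in 1 of 31 (3.23%), against 6.25% of all, and GTAAACA, the core of forkhead factors, in 0 of 31, against 3.17%. The E-box CAGCTG, taken for comparison, was present in 4 of 31 (12.9%), against 13% of all. Below, capitals mark GTTGCC or its reverse GGCAAC, except in the second Otx2 window, where they mark GGATTA, the reverse of the OTX core. The windows are chr16:92292139-92292388 (plus strand) for Kcne2, chr6:55336049-55336298 (plus) for Aqp1, chr5:5749318-5749567 (minus) for Steap1, and chr14:48667509-48667758 and chr14:48665110-48665359 (minus) for 2 starts of Otx2. A further Otx2 window overlaps the first and shares 1 of its matches, so that match is counted in 2 of the 6 windows. The fifth gene with GTTGCC was Defb11, as GGCAAC 28 bases before its start, which is not printed.
Kcne2: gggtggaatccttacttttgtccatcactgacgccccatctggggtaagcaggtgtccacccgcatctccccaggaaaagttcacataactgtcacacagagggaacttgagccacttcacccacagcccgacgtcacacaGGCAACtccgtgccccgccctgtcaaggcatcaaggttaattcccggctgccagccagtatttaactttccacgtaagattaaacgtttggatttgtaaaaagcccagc
Aqp1: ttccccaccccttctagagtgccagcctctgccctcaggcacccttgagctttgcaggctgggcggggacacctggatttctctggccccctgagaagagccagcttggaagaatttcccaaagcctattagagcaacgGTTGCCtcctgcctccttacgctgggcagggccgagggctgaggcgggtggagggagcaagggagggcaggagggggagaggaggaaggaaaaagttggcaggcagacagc
Steap1: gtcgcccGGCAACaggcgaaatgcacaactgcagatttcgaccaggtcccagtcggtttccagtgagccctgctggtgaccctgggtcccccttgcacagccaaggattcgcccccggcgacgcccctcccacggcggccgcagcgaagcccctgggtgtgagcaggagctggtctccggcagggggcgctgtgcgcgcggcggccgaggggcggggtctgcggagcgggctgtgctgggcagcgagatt
Otx2 first: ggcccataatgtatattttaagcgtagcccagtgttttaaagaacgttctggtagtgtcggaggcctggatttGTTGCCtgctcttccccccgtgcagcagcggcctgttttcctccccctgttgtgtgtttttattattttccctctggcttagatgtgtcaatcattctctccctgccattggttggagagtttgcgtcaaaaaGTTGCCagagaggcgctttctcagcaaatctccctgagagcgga
Otx2 second: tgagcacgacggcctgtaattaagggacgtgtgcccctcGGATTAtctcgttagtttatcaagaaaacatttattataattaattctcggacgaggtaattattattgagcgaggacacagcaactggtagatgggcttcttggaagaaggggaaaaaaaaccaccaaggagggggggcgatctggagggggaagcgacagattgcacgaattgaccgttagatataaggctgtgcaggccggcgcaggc
The match lay 109 bases before the start in Kcne2, 111 in Aqp1 and 243 in Steap1. In the first Otx2 window the matches lay 177 and 44 bases before the start, and in the second the OTX core lay 211 bases before it. A match is a string of letters and not a measured binding site.

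The list of secreted proteins and carriers held the most members, 7 of its 38 genes with a contralateral mean above 4 (18.4%). The share over all genes was 0.354%, and this list too was written with earlier results known. The count is that of the list as written, which holds Calml4, not known as a secreted protein. It leaves out members that encode secreted proteins, among them Sema3b, A2m and the defensin Defb11. Values below are log2 on contralateral arrays 1, 2 and 3 and then on ipsilateral arrays 1, 2 and 3, and a fold is 2 to the power of the difference from the contralateral mean. Ttr encodes transthyretin, the carrier of thyroid hormone and retinol-binding protein that the plexus secretes. It measured 15.51, 15.65 and 15.21 contralaterally and 15.85, 11.87 and 12.98 ipsilaterally. Ipsilateral 1 was 1.32-fold above the contralateral mean, while the mean of ipsilateral 2 and 3 was 8.16-fold below it. Its other probe sets, with lower contralateral means of 14.96 and 14.30, were 11.9-fold and 25.3-fold below, so the probe set with the highest signal gave the smallest difference. Its values on contralateral 2 and ipsilateral 1 were the highest of any probe set on those arrays. Saturation was not tested, and the folds of this probe set are uncertain for that reason. On all 3 of them ipsilateral 2 was lower than ipsilateral 3.

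Sostdc1, a secreted antagonist of BMP and Wnt signalling, measured 6.93, 6.37 and 6.22 contralaterally and 8.11, 2.73 and 2.59 ipsilaterally. That placed the low arrays 14.4-fold below the contralateral mean and ipsilateral 1 3.03-fold above it. Kl encodes klotho, a co-receptor for FGF23 that is also shed into cerebrospinal fluid. It measured 7.09, 6.83 and 6.33 contralaterally and 8.17, 3.71 and 3.58 ipsilaterally, and its other, dim probe set had a margin of -0.12. Ecrg4, the precursor of the secreted peptide augurin, measured 8.46, 8.26 and 7.61 contralaterally and 9.42, 5.01 and 5.48 ipsilaterally. In all 3 genes the gap between ipsilateral 1 and the higher of the low arrays exceeded 3.9 log2 units, with Sostdc1 at 5.38, Kl at 4.46 and Ecrg4 at 3.94.

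The other members of the list had smaller margins. F5, coagulation factor V, measured 6.34, 6.48 and 5.82 contralaterally and 7.39, 4.72 and 3.82 ipsilaterally, with its second probe set at a margin of 1.96. Calml4, a calmodulin-like protein, measured 7.99, 7.41 and 7.34 and then 8.57, 6.24 and 6.62. Spint2, an inhibitor of serine proteases at epithelial surfaces, had the smallest margin of all 31 genes (0.52) and measured 7.40, 7.24 and 6.72 and then 7.83, 5.95 and 6.20. Its other, brighter probe set missed the rule, with a margin of 0.44. These 3 genes were 2.06-fold to 3.85-fold below the contralateral mean on the low arrays. Bright genes of the same list did not follow the pattern: prostaglandin D synthase Ptgds (margin -0.06), carboxypeptidase E Cpe (-0.26), cystatin C Cst3 (-0.12), clusterin Clu (-0.10), Apoe (-0.37) and Apod (-0.15). All are also made by other brain cells, and the part of those cells in these values was not tested. The growth factor gene Igf2 and its binding protein gene Igfbp2, both also expressed in the meninges, had margins of 0.01 and 0.08. The 31 measured genes of the list that were not members had means between 8.20 and 8.31 contralaterally and 8.29, 8.10 and 8.09 ipsilaterally.

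Ion and water transport genes contributed 4 of 30 (13.3%, against 0.354% of all genes). Kcne2, a subunit that partners apical potassium channels, had the largest margin of all (3.75). It measured 7.17, 7.04 and 6.54 contralaterally and 8.33, 2.78 and 2.75 ipsilaterally, so the low arrays were 17.7-fold below the contralateral mean of 6.91 ± 0.33 (SD, n = 3). Aqp1, the apical water channel, measured 5.86, 5.25 and 4.51 contralaterally and 7.37, 2.67 and 3.17 ipsilaterally. Its ipsilateral 1 value was 4.47-fold above the contralateral mean, the highest ratio among the 31 genes. Car12, a membrane carbonic anhydrase, measured 5.95, 4.81 and 4.498 and then 6.84, 2.45 and 3.10. Slc4a5, a sodium bicarbonate cotransporter, measured 7.33, 6.70 and 6.15 and then 8.24, 5.43 and 5.26. Contralateral array 3 was the lowest of its side in each of these 4 genes, by 0.31 to 0.73 below the next one.

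Other genes of the ion and water transport list stayed outside. Slc12a2, the sodium, potassium and chloride cotransporter, had a margin of -0.18, the sodium pump subunits Atp1b1 and Atp1b2 had margins of -0.28 and -0.17, and carbonic anhydrase Car2 one of -0.30. Aqp4, the astrocyte water channel, had a margin of -0.35, and the vacuolar proton pump subunit Atp6v1b2 one of -0.28. The sodium pump regulator Fxyd1 (0.37) and the sodium bicarbonate transporter Slc4a10 (0.24), chosen after their values were seen, kept the same order of arrays without reaching 0.5.

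Organic solute, vitamin, hormone and metal transport gave 3 of 40 (7.5%, against 0.354% of all genes). Besides Ttr these were Folr1, the folate receptor that carries folate into cerebrospinal fluid, and Steap1, a plasma membrane protein of the STEAP metalloreductase family. Folr1 measured 8.29, 8.16 and 7.28 contralaterally and 9.44, 3.91 and 4.01 ipsilaterally. Steap1 measured 7.14, 7.26 and 6.02 contralaterally and 7.99, 4.46 and 3.37 ipsilaterally. Both were more than 7-fold below the contralateral mean on the low arrays, at 15.4-fold and 7.43-fold. The brightest genes of this list outside the pattern had margins near or below 0: glucose transporter Slc2a1 (-0.34), transferrin receptor Tfrc (0.04), Vldlr (-0.00), Slco1a4 (-0.14), Slco1c1 (-0.09) and Slc6a20a (-0.09). The copper transporter gene Slc31a1, named after its value was seen, had a margin of 0.38. Of the receptor and signalling list 1 of 31 genes (3.23%) followed the pattern, Kl, which the list of secreted proteins also holds. Bright receptors outside it included Ddr1 (-0.43), Lifr (-0.33), Fgfr3 (-0.11) and Notch2 (-0.38).

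Epithelial junction and barrier genes gave 4 of 48 (8.33%, against 0.354% of all genes). Cldn1 and Cldn2 encode claudins, the strands of tight junctions, and Cldn2 forms a channel for small cations. Cldn1 measured 5.89, 5.76 and 5.14 contralaterally and 6.98, 3.71 and 2.94 ipsilaterally. Cldn2 measured 6.47, 6.54 and 5.79 and then 7.63, 4.09 and 4.41. Each claudin rests on 1 probe set, of 4 for Cldn1 and of 2 for Cldn2. The other probe sets, all with a contralateral mean below 4, missed the rule. Their margins were -0.12, -0.01 and -0.07 for Cldn1 and 0.11 for Cldn2. Krt18 and Krt8 encode the keratin pair of simple epithelia, which polymerise with each other. Krt18 measured 6.10, 5.68 and 5.41 and then 7.08, 3.82 and 3.80. For Krt8 the values were 4.88, 4.40 and 4.22 and then 5.11, 3.40 and 3.61. The low arrays were 3.78-fold below the contralateral mean for Krt18 and 1.99-fold below for the dimmer Krt8. The Krt8 values on ipsilateral 2 and 3 lay close to the first quartiles of those arrays, 3.38 and 3.23. The 2 folds therefore cannot be compared in size. Both other Krt8 probe sets missed the rule, with margins of -0.31 and -0.35. Krt8 therefore rests on 1 probe set of 3, of a type prone to cross-hybridization.

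The brightest junction genes outside the pattern had margins below 0. The gap junction genes Gja1 and Gjb6 of astrocytes had margins of -0.09 and -0.06, the myelin claudin Cldn11 and the myelin protein Mal -0.45 and -0.22, and Cdh2 and Ctnnb1, general adhesion genes, -0.41 and -0.17. Cldn5, the claudin of brain endothelium, had a margin of -0.13. Ezrin (Ezr), which links membrane to actin in microvilli, came close at 0.41, a gene chosen after its value was seen.

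**Figure D2:**
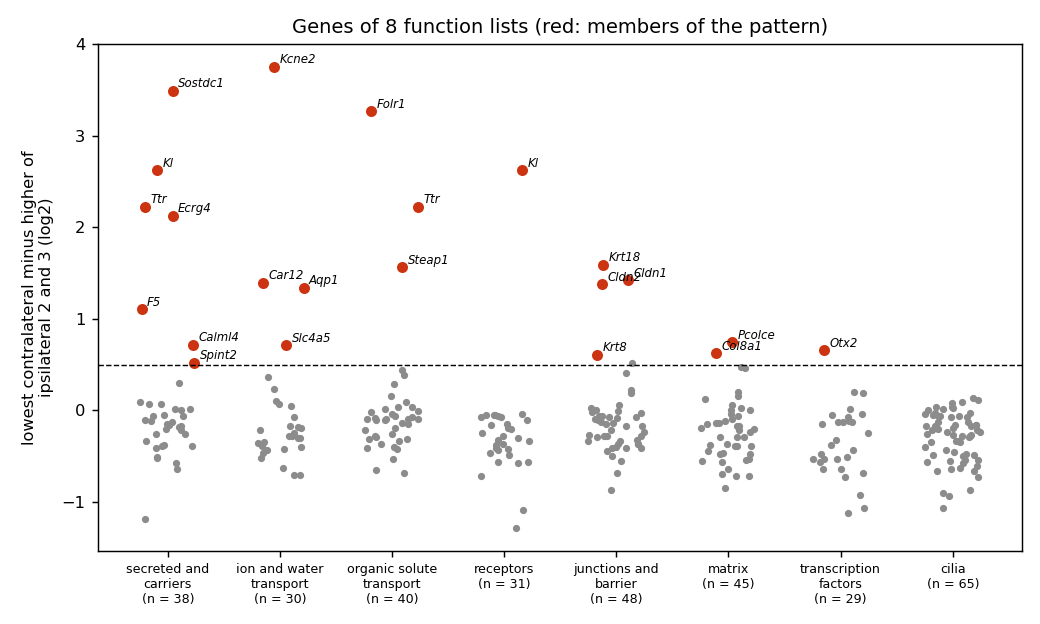
Margin (lowest contralateral value minus the higher of ipsilateral 2 and 3, log2, y axis) of every gene with a contralateral mean above 4 in 8 function lists, with members in red and the dashed line at 0.5. A few members stand far above the bulk of their lists, and the 65 cilia genes lie at 0.14 or below.

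Matrix genes gave 2 of 45 (4.44%) and transcription factors 1 of 29 (3.45%), against 0.354% of all genes. Pcolce, an enhancer of procollagen processing, measured 7.88, 8.21 and 7.75 and then 8.77, 7.01 and 6.96, but its other probe set had a margin of -0.12. Col8a1, a short-chain collagen, measured 6.23, 5.66 and 5.66 and then 6.98, 4.10 and 5.03, and its other, dim probe set had a margin of -0.11. Otx2, the homeobox factor needed to form and maintain the plexus, measured 7.26, 7.11 and 7.01 contralaterally and 7.97, 5.85 and 6.36 ipsilaterally. Otx2 differed less than the transport genes, at 2.04-fold below the contralateral mean of 7.13 ± 0.12 (SD, n = 3). Other bright factors of that list lay outside the pattern, among them Zic1 (margin -0.53), Meis2 (-0.12), Mitf (-0.14), Nfib (-0.51), Id1 (0.20) and Id3 (-0.03). So did the bright matrix genes Sparcl1 (-0.28), Sparc (-0.29), Mgp (-0.21), Vtn (0.06), Fbln5 (0.16) and Fn1 (-0.23).

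Of the listed cilia genes with a contralateral mean above 4, 0 of 65 met the rule. Since 0.354% of all genes met it, a count of 0 in a list of this size is near the background and is no result about cilia genes. The largest margin among them was 0.14, that of the radial spoke gene Rsph9. In the same order of arrays at any margin there were 5 of 65 cilia genes, against 1.95% of all genes. Rsph9 measured 6.26, 6.12 and 5.76 contralaterally and 6.65, 5.45 and 5.62 ipsilaterally. Averaged over the 65 genes, the level was 6.72 to 6.78 contralaterally and 6.88, 6.63 and 6.82 ipsilaterally. Ipsilateral 1 was thus the highest array for the list, while ipsilateral 3 lay above every contralateral array. The bright ones include tubulins and transport genes used by many cells: Tuba1a (margin -0.12), Tubb4b (-0.06), Arl3 (0.04), Cfap36 (0.04) and Ift27 (-0.27). Pltp (-0.33), also bright, encodes a phospholipid transfer protein and is not known as a cilia gene. The counts and means are those of the list as written, which holds Pltp. Foxj1, the master regulator of motile cilia, measured 5.35, 4.85 and 5.07 contralaterally and 5.60, 5.17 and 5.92 ipsilaterally. Its margin was -1.07, and ipsilateral 3, one of the low arrays of the 31 genes, was its highest array. Foxj1 was named after its value was seen. Of the 220 listed cilia genes, 88 were named on the array and the others were not analysed here.

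The 11 members outside all lists had margins from 0.54 to 1.26. Oca2, a melanosomal membrane transporter, measured 4.37, 4.02 and 3.93 and then 5.27, 2.62 and 2.67, which is dim on both sides. Sema3b, a secreted semaphorin that guides axons, measured 5.32, 5.18 and 4.78 and then 5.996, 3.86 and 3.31. Its other probe sets, both dimmer, had margins of 0.29 and -0.79. A2m, the secreted protease inhibitor alpha-2-macroglobulin, measured 7.58, 7.58 and 7.67 and then 8.16, 6.46 and 6.82. A2m and the monooxygenase-like gene Moxd1 were the members in which contralateral array 3 was the highest of its side. Emb, a partner protein of monocarboxylate transporters, followed the pattern on both of its probe sets, with margins of 0.57 and 0.53. Cab39l, a scaffold of the LKB1 kinase complex, had a margin of 0.62 on one probe set and 0.39 on another. The others were Wdr86 (0.90), the cell cycle gene Ccnd2 (0.63), the defensin Defb11 (0.62), the glycosyltransferase B3galt1 (0.54) and the methyltransferase Hemk1 (0.54). Ccnd2 met the rule on 1 of 7 probe sets, and the brighter probe set of B3galt1 had a margin of -0.36. The only probe set of Defb11 was of a type prone to cross-hybridization.

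Over the 31 genes, ipsilateral 1 lay 1.08-fold to 4.47-fold above the contralateral mean (median 1.99). The low arrays lay 1.55-fold to 17.7-fold below it (median 2.65). The 7 plexus markers had a median of 8.62-fold on the low arrays and the 11 genes in no list one of 1.96-fold. Both groups were selected on these values, and the markers were proposed with earlier results known. The difference between the groups is therefore only a description. In 6 genes (Kcne2, Sostdc1, Car12, Aqp1, Oca2 and Wdr86) both low arrays were at or below the first quartile of their array, 3.38 and 3.23. GCRMA shrinks such dim values, so these folds are uncertain. Just inside the margin of 0.5 were Spint2 (0.52), Hemk1 (0.54) and B3galt1 (0.54), and just outside were the collagen Col9a3 (0.47), the retinol dehydrogenase Rdh5 (0.44) and the secreted protein C1qtnf12 (0.44). A margin of 0.5 without ipsilateral 1 above the contralateral arrays was seen in 4 further genes: Fos, Rgs2, Adcyap1 and Crb3. All 4 had ipsilateral 1 below at least 1 contralateral array, so they do not belong to the set. In Fos, Rgs2 and Adcyap1 every ipsilateral array was below every contralateral array. In Crb3 ipsilateral 1 (4.91) lay above contralateral 3 (4.87).

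**Figure D3:**
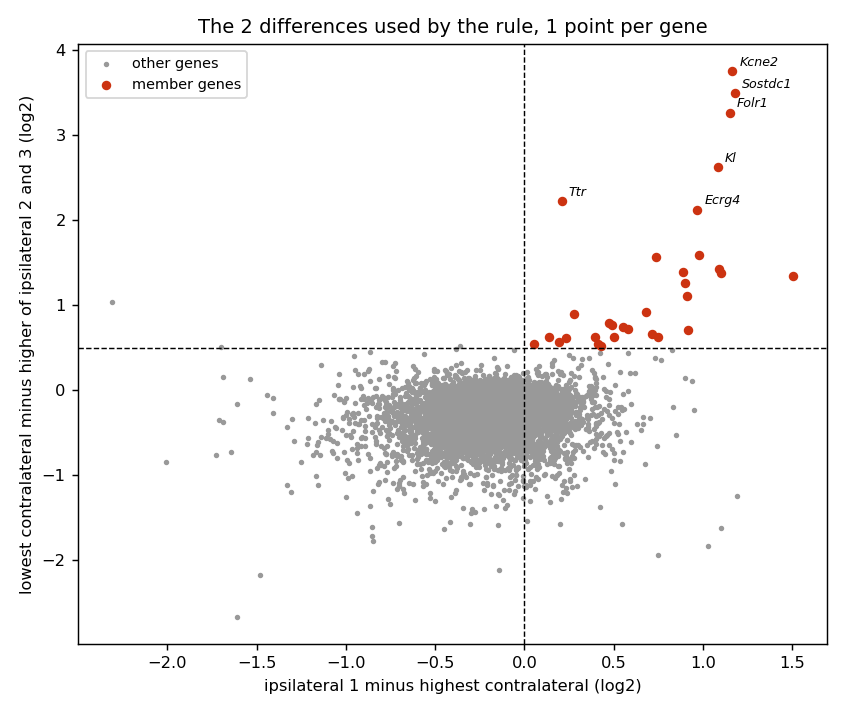
Ipsilateral 1 minus the highest contralateral value (x axis, log2) against the margin (y axis, log2), 1 point for each of 8758 genes, with dashed lines at the limits of the rule. The 31 members, in red, occupy the upper right field by construction, and Kcne2, Sostdc1 and Folr1 have the largest margins.

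The order among the contralateral arrays was not fixed by the rule. Contralateral array 3 was the lowest of the 3 in 28 of 31 members (90.3%), against 35.1% of the 8758 genes. Contralateral array 1 was the highest in 22 of 31 (71.0%), against 35.2%. The difference between contralateral 1 and 3 had a median of 0.63 in the members, with a range from -0.09 to 1.45, against a median of 0.02 in all genes. It was 0.73 in the 14 members with a margin of 1 or more and 0.35 in the 17 with a smaller margin. Contralateral 3 was the lowest in all 14 of the first group and in 14 of 17 of the second. Moxd1, A2m and Cab39l were the members in which it was not. Between the low arrays, which the rule also left unordered, ipsilateral 2 was below ipsilateral 3 in 18 of 31 members (58.1%), against 48.9% of all genes. Each array is 1 pool, so these counts describe the pools and the genes are not independent replicates.

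**Figure D4:**
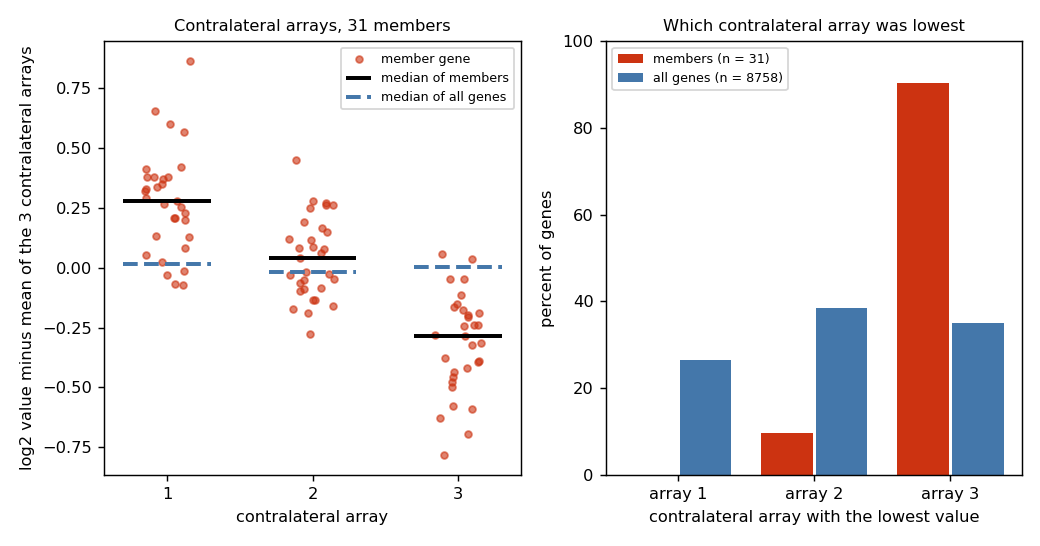
Left, log2 value of each of the 31 members on each contralateral array minus its mean over the 3 contralateral arrays, with the median of the members (black) and of all 8758 genes (dashed blue). Right, percent of members and of all genes for which each contralateral array was the lowest, 90.3% of members for array 3.

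Markers of other cell types gave these counts of members: 0 of 31 measured meningeal and stromal genes, 0 of 9 ependymal genes, 0 of 22 endothelial genes, 0 of 14 astrocyte, 0 of 10 oligodendrocyte, 0 of 16 microglial, 0 of 17 neuronal, 0 of 14 cerebellar and 0 of 2 red blood cell genes. Beside the share of 0.354% over all genes, counts of 0 in lists this short are at the background and say nothing about these cell types. At any margin, 3 of 31 meningeal and stromal genes (Bgn, Igfbp2 and Islr, with margins of 0.12, 0.08 and 0.03) had the same order of arrays, against 1.95% of all genes. Ependyma, the ciliated lining of the ventricles, had means between 6.73 and 6.89 contralaterally and 7.22, 6.63 and 6.94 ipsilaterally. The radial spoke gene Rsph1, which had the largest margin of that list (-0.19), measured 6.72, 6.59 and 6.20 and then 7.14, 6.10 and 6.39. It does not stand for the list, in which 3 of 9 genes had a lower ipsilateral than contralateral mean. The list was highest on ipsilateral 1, 0.41 above the contralateral mean, and the mean of ipsilateral 2 and 3 was 0.03 below it. Meningeal and stromal genes had means between 7.01 and 7.23 contralaterally and between 6.99 and 7.08 ipsilaterally. The sides overlapped, and ipsilateral 1 was 0.10 below the contralateral mean. For the choroid plexus markers the same differences were 1.34 and -3.06, in the directions set by the rule, which all of these markers meet. Endothelial genes were 0.14 and 0.11 below the contralateral mean, and pan-neuronal genes 0.08 below it on ipsilateral 1 and 0.13 above it on ipsilateral 2 and 3. The 2 red blood cell genes measured had a mean of 6.09 on ipsilateral 2, against 6.64 to 6.67 contralaterally, 6.77 on ipsilateral 1 and 6.81 on ipsilateral 3. Markers with a contralateral mean of 4 or less were left out of these means: 5 meningeal genes (Slc22a2, Tbx18, Alx4, Twist1 and Dpep1), Itgam and Trem2 of microglia, and Tie1, Slc6a5 and Hba-a1. The part of these cell types in the pattern was not tested.

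**Figure D5:**
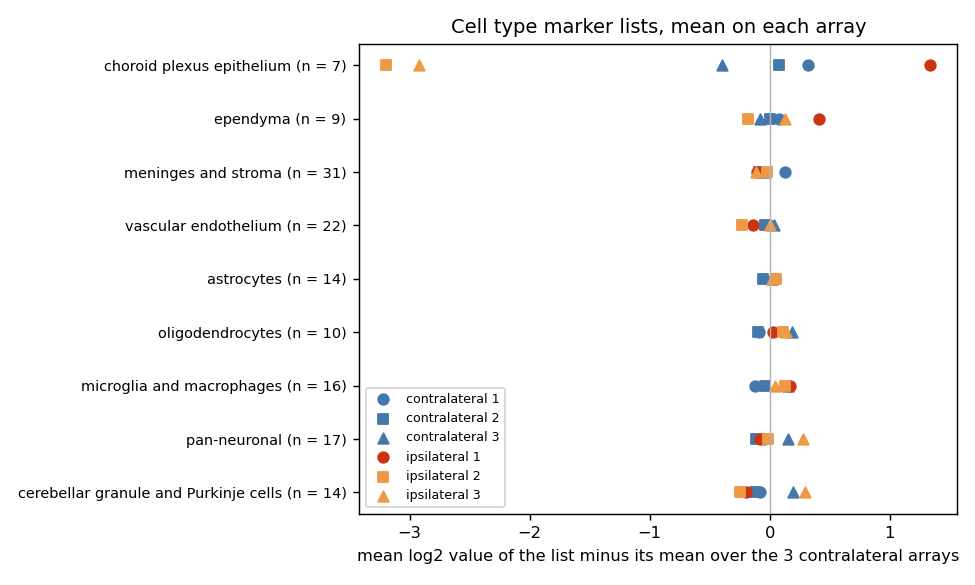
Mean log2 value of each cell type marker list on each array minus its mean over the 3 contralateral arrays (x axis), with the number of genes in brackets. The 7 choroid plexus markers, all members, lie at 1.34 on ipsilateral 1 and average -3.06 on ipsilateral 2 and 3, and the other 8 lists drawn lie within 0.41 of 0.

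The comparison of the 2 sides asked which genes change when the auditory nerve is silenced. Of 15298 probe sets tested in limma, 0 (0%) passed an adjusted p of 0.05 (Benjamini-Hochberg), and at an unadjusted p under 0.05 1.22% (187) were lower and 1.16% (177) higher on the infused side. All 31 members had a lower ipsilateral than contralateral mean, with a median difference of -0.66 against -0.00 for all genes. Of the 29 members bright enough to be tested, 0 had an unadjusted p under 0.05, since ipsilateral SDs of 0.43 to 3.21 went with 1 array above and 2 below. These counts use the contrast of the rule and are given as a description. With ipsilateral replicate 1 left out, 5 probe sets passed the adjusted threshold in limma, 1 each for Kcne2, Sostdc1, Ttr, Kl and Folr1. For Ttr it was not the probe set reported above as its values, but the one 25.3-fold below. The rule selected genes for this difference, so these calls are no independent result. In the 8 function lists 4 of 323 tested genes (1.24%) were lower at an unadjusted p under 0.05 in limma and 1 (0.31%) was higher. Of all 8754 genes tested, 116 were lower and 97 higher. The count of lower genes is thus near the background, and neither count is a result about the lists. Each of the listed genes counted had an adjusted p of 1.00 in limma. These were the retinol transporter gene Stra6 (difference -0.64, SE 0.19), the polarity gene Crb3 (-0.61, SE 0.21), Tfrc (-0.33, SE 0.13) and Vtn (-0.23, SE 0.10) on the lower side and Morn3 (0.58, SE 0.12) on the higher side.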

How the data were processed

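The deposited values are log2 expression values per probe set of 6 Affymetrix arrays. The submitters' processing notes name GCRMA as the authors' method, which corrects background from probe sequence, normalizes between arrays and summarises probes. No version is named. That the scale is log2 follows from their range, 1.40 to 16.0. The platform annotation gave 1 gene symbol to 20380 of 22690 probe sets that were not controls, and symbols were checked against RefSeq by Entrez identifier. Nothing was normalized again.

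Each sample's description gave its side and replicate number. Members and gene lists were chosen with earlier results of these data known. A gene with several probe sets meeting the rule is represented by the one of highest mean, and otherwise by its probe set of highest mean. Genes named are the markers, up to 12 members and up to 6 non-members of highest contralateral mean in each list, the 12 members of largest margin, up to 15 members outside all lists, 3 genes on each side of the margin of 0.5, other probe sets of these, and others where stated.

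The 2 sides were compared with limma 3.58.1 in R 4.3.3 (lmFit, eBayes) over 15298 probe sets with a mean above 4, with Benjamini-Hochberg adjustment and a threshold of 0.05, and tested on simulated data. The replicate block was an alternative, as were other margins, filters, scalings, probe set choices and leaving out each array. Arrays give no read depth, so their number limits precision. An exact permutation test of 3 against 3 cannot go below 0.1.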

Additional observations from a re-analysis of the deposited data

How the results depend on the processing

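The count of 31 genes stayed within 1.5 times, and the 31 were all kept, with a margin of 0.3 (46 genes), no minimum mean (31), quantile normalization (31) and median centring (31). With the looser margin and with no minimum mean, keeping all 31 was fixed in advance. The count was 29 without probe sets prone to cross-hybridization and 22 when a gene's probe sets were averaged, all of them among the 31. For the 29 this was fixed in advance, since probe sets were only removed. Krt8 and Defb11 were the members lost there. The count was 14 with a margin of 1, 18 with a contralateral mean above 6 and 227 with any margin above 0, an alternative chosen after seeing the data that counts every probe set. Leaving out 1 array gave 30 to 73, with 62 without ipsilateral replicate 2 and 73 without ipsilateral replicate 3. All 31 were kept in these, except that 30 were kept without contralateral replicate 1. Leaving out an array only removes conditions of the rule, apart from the limit on the contralateral mean, so keeping members was fixed in advance.

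In limma, 0 probe sets passed the adjusted threshold, with 187 lower and 177 higher at an unadjusted p under 0.05. With the replicate block these were 0, 302 and 267. The labels do not say that same-numbered pools share mice, their deviations correlated at 0.09, 0.04 and 0.57, and not every sample correlated best with its own number. With a mean above 6 there were 111 lower ones. Leaving out 1 array gave 0 to 5 adjusted, 170 to 301 lower and 132 to 276 higher, with 301 lower without ipsilateral replicate 3, 276 higher without contralateral replicate 3 and 5 adjusted without ipsilateral replicate 1. For the reported probe sets of the members tested, leaving out 1 array gave 0 to 4 past the adjusted threshold and 0 to 29 at an unadjusted p under 0.05. Both were highest without ipsilateral replicate 1, where the rule had selected for the difference, so these counts are no independent result. The medians of the gene lists moved by less than the spread between replicates in 198 of 198 recomputations. For the choroid plexus list this says little, because the pattern itself makes that spread wide. Its median difference was -1.89, and -3.11, -1.04 and -1.09 without ipsilateral replicate 1, 2 and 3. The cause of these changes was not tested. Dim values near the background limit the folds of the lowest genes.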
